A study of Mus musculus with 6 samples.

Results

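Complex I, the NADH:ubiquinone oxidoreductase of the mitochondrial inner membrane, was examined through its nuclear genes in heart ventricles of mouse embryos. The set was every gene with the symbol stem Ndufa, Ndufab, Ndufaf, Ndufb, Ndufc, Ndufs or Ndufv followed by a number and with a probe set annotated to that symbol alone. It held 44 of the 18194 genes on the array, read by 88 of 45101 probe sets. Of the 44, 34 encode subunits of the complex, 8 encode assembly factors (Ndufaf1 to Ndufaf8), and 2 (Ndufa4 and its paralog Ndufa4l2) carry the name but are not counted here among the subunits of complex I. Each gene was represented by its brightest probe set. The members were compared between 3 arrays of skNAC knockout embryos, in which skNAC was deleted by gene targeting (knockout 1, 26 and 66, numbered as in their titles), and 3 arrays of wild-type embryos (13, 23 and 57). Array values are MAS5 signals and are given in that order throughout, and differences carry their standard error (n = 3 arrays per genotype). All were littermates on the 129SvEv background at stage E11.5, with the deletion lethal by E12.5 per the labels. No treatment is labelled in either group, and every sample was total RNA of ventricle, of which 500 ng was amplified. The labels do not say whether an array held 1 heart or several or which embryos shared a litter, so the p-values measure the spread between these samples, some of which may be technical.

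Complex I takes electrons from NADH and passes them through a flavin and a chain of iron-sulfur clusters to ubiquinone, while it pumps protons across the inner membrane. It is shaped like an L, with a matrix arm that holds the electron path and a membrane arm that holds the pumps. The catalytic core of the matrix arm is nuclear-encoded, the core of the membrane arm is encoded by mitochondrial DNA, and many accessory subunits surround both. Assembly factors are proteins that help build the complex and are absent from the finished enzyme. In the heart the complex is part of the oxidative system that supports contraction, and its use grows as the embryonic heart matures.

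No Nduf gene differed detectably between skNAC knockout and wild-type ventricles. Of 43 members whose signal passed the filter for dim probe sets, 0 rose and 0 fell at an adjusted p of 0.05 in limma, where 0% of all 11661 tested genes did so, and 0 had an unadjusted p under 0.05, against 4.69% of all genes. With array quality weights, another form of the same fit, 8 genes in all passed the adjusted threshold, of which 0 were members. Ndufab1 alone among the members was then below the unadjusted threshold in limma (0.23 ± 0.079, adjusted p = 0.293), as were 12.1% of all genes. The log2 differences, knockout minus wild-type on the scale of log2(signal + 16), ran from -0.16 to 0.18 over the 34 subunits, with a median of -0.012, and from -0.24 to 0.23 over the 8 assembly factors, with a median of 0.025. Over all tested genes the median was 0.0023. Of the subunits 21 lay below 0 and 13 above, or 61.8% below against 49.6% of all genes. That split was not stable: it was 11 of 34 below 0 without wild-type 23, 15 without knockout 66, 17 without wild-type 13 and 27 without wild-type 57. Centring on array medians left 17 below 0. Quantile normalization, which forces the arrays to 1 distribution, left 26 below 0 with a median of -0.062. Of all 11661 genes 5476 and 5766 lay below 0 under these settings, in the same order. Complexes II to V had 20 and 30 of 43 genes below 0, the latter also at a median of -0.062.

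The intervals bound the size of a difference on the deposited scale, for the probe set that represents each gene. For all 34 subunits the 95% interval of the difference lay inside a 1.5-fold change in either direction, which is 0.58 on the log2 scale, against 54.3% of all tested genes. This was close to the rest of the respiratory chain, where 39 of 43 genes of complexes II to V (90.7%) had such an interval. With a stricter filter for dim probe sets, at the 70th percentile, 73.4% of all genes did. The lowest bound among subunits was -0.52 (Ndufb10) and the highest was 0.55 (Ndufb4, a dim probe set). The count of subunits inside the bound was 30 to 34 when arrays were left out in turn, lowest without wild-type 57. It was 31 with median centring or with eBayes without a trend, where Ndufb10, Ndufc1 and Ndufs5 passed the bound. Of all 67 kept subunit probe sets 63 had such an interval. The other 4 were probe sets of Ndufa10, Ndufb2, Ndufs4 and Ndufs8 that do not represent their gene, with bounds as low as -1.39 (Ndufb2) and as high as 0.72 (Ndufs4). Of the assembly factors 5 of 8 had such an interval. The other 3 reached -0.60 (Ndufaf7), 0.60 (Ndufaf2) and 0.61 (Ndufaf6). The median standard error was 0.11 for subunits, 0.16 for assembly factors and 0.19 over all genes. The bound is relative to the rest of each array, since signals were scaled per array, and in ventricle tissue fewer cells of a type and less RNA per cell cannot be told apart.

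**Figure D1:**
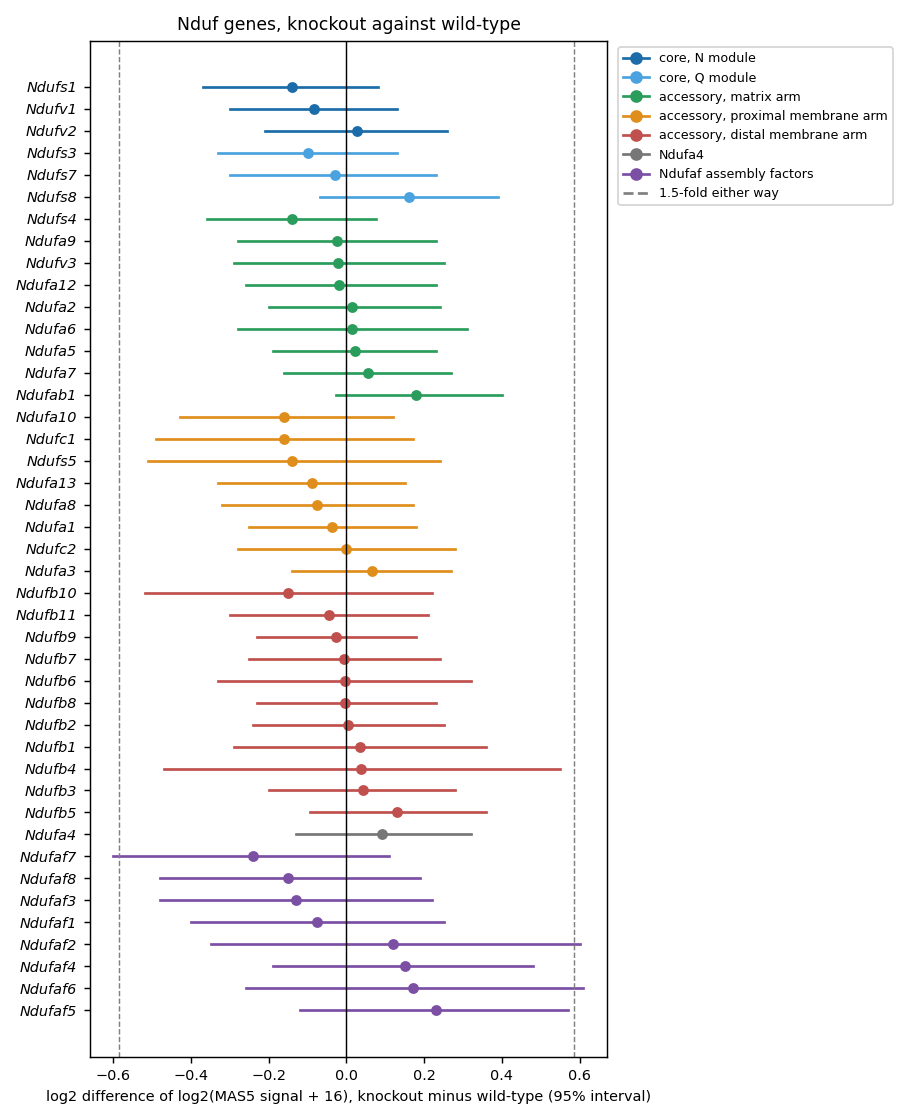
Log2 difference, knockout minus wild-type, of log2(MAS5 signal + 16) for the 43 Nduf genes tested, with points for the estimate and lines for its 95% interval from limma (n = 3 arrays per genotype), in blocks by role. Every interval crosses 0, and the intervals of all 34 subunits lie between the dashed lines at a 1.5-fold change, while those of Ndufaf7, Ndufaf2 and Ndufaf6 cross a dashed line.

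The median signal ran from 92.0 to 113.9 over the arrays, whose trimmed means were all 250, and knockout 66 stood apart on the first principal component, at 55.9 against -24.7 to 4.79 in the others. The ratio of 3' to 5' signal, a sign of RNA quality, was higher in the knockout arrays for actin (2.49 to 2.57 against 2.05 to 2.24) and Gapdh (1.28 to 1.45 against 1.12 to 1.2). Its part in the results was not tested. Naca, the gene that encodes skNAC, read 9047.3, 9033.7 and 8594.6 in the knockout arrays and 8385.4, 8565.7 and 8285.5 in the wild-type arrays, and since its probe sets are not tied here to the muscle-specific part, this does not check the genotype. All 12 cardiomyocyte markers passed the filter, with summed signals of 116037 to 129112 in knockout and 111233 to 122805 in wild-type arrays, while 5 of 6 liver and foregut markers did not pass it. The summed signal of 5 macrophage markers was lower in every knockout array, at 705 to 784 against 799 to 837, although 2 of the 5 did not pass the filter. The 3 that passed did not share this direction, with 2 above 0, 1 below and a median log2 difference of 0.082. For 8 markers of cushion mesenchyme and neural crest the summed signal was 3334 to 4612 against 4336 to 4821, with 6 of 8 below 0 and a median log2 difference of -0.19. The part of these cells in the results was not tested.

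Nuclear genes of the respiratory chain are known to be driven by a small set of transcription factors, among them NRF1, GABPA, YY1 and the estrogen-related receptors, so the start sites of the members were searched for their motifs on both strands. RefSeq promoter windows of build GRCm38.p6, from 250 bases before to 50 bases after a start, were matched by symbol for 39 of 44 members: 31 subunits, 7 assembly factors and 1 of the Ndufa4 pair. The NRF1 motif (GCGCA and GCGC with 1 base between them) occurred at 5 of 31 subunit genes (16.1%). It occurred at 11.1% of the tested genes with a window and at 5.19% of all genes with a window. The YY1 motif AANATGGCG occurred at 6 of 31 (19.4%), against 5.81% of tested genes and 2.76% of all genes with a window. The GABPA motif CCGGAAG occurred at 4 of 31 (12.9%), against 19.0% and 9.93%. The motif of estrogen-related receptors, TNAAGGTCA, occurred at 1 of 31 (3.23%), Ndufb4, against 0.973% of tested genes and 1.43% of all genes with a window. Any of these was present at 15 of 31 subunit genes (48.4%) and 31.9% of tested genes. In the 41 windows of members no matches of different motifs overlapped. These are matches of letters and not measured binding sites.

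Stretches before the start of 4 members are shown because they carry a match of 1 of these motifs, in capitals, each read 5′ to 3′ on the strand of its gene. Ndufs5 and Ndufaf4 hold the NRF1 motif, Ndufs3 the GABPA motif and Ndufa7 the YY1 motif.
Ndufs5: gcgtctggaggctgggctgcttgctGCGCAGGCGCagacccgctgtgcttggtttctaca
Ndufaf4: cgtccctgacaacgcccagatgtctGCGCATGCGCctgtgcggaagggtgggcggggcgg
Ndufs3: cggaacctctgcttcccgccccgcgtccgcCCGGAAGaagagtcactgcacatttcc
Ndufa7: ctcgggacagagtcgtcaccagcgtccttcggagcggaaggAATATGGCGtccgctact
In GRCm38.p6 they lie at chr4:123718250-123718309 (minus strand) for Ndufs5, chr4:24897945-24898004 (plus strand) for Ndufaf4, chr2:90904722-90904778 (minus strand) for Ndufs3 and chr17:33824586-33824644 (plus strand) for Ndufa7. The first base of the match lies 98, 113, 27 and 18 bases before the start. The genotype difference was -0.14 ± 0.17 (SE) for Ndufs5, 0.15 ± 0.15 for Ndufaf4, -0.10 ± 0.11 for Ndufs3 and 0.056 ± 0.10 for Ndufa7. The median difference was 0.015 over the 5 subunit genes with the NRF1 motif, -0.038 over the 6 with the YY1 motif and -0.0054 over the 4 with the GABPA motif.

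The core subunits of the N module, where electrons enter, were represented by Ndufv1, Ndufv2 and Ndufs1. Ndufv1, which holds the flavin and binds NADH, read 2347.5, 2444.6 and 2208.0 in the knockout arrays and 2553.2, 2474.9 and 2389.2 in the wild-type arrays, with overlapping groups and a difference of -0.084 ± 0.10. Its other 2 probe sets gave -0.12 and -0.14, so all 3 lay on the same side of 0. Ndufv2, an iron-sulfur protein beside the flavin subunit, read 6462.3, 5636.1 and 6211.4 in the knockout arrays and 6493.6, 6304.2 and 5226.4 in the wild-type arrays. The lowest of its 6 values was wild-type 57, and the difference was 0.027 ± 0.11, with 2 other probe sets at 0.067 and 0.10. Ndufs1, the largest subunit of this module and a carrier of several iron-sulfur clusters, read 2131.6, 2021.4 and 1970.6 in the knockout arrays and 2333.6, 2340.5 and 2097.8 in the wild-type arrays. Its genotypes overlapped only in that knockout 1 lay above wild-type 57, and the difference of -0.14 ± 0.10 had an interval from -0.37 to 0.081 (unadjusted p = 0.187, adjusted p = 0.974 in limma).

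The Q module passes electrons to ubiquinone, and 3 of its core genes were measured. Ndufs3 read 3176.1, 2867.9 and 2887.9 in the knockout arrays and 3408.6, 3330.6 and 2854.7 in the wild-type arrays. Knockout 26, knockout 66 and wild-type 57 lay between 2854.7 and 2887.9, and the other 3 arrays were higher, at a difference of -0.10 ± 0.11. Ndufs7, which carries the last iron-sulfur cluster before ubiquinone, read 2476.3, 2135.2 and 2442.2 in the knockout arrays and 2643.5, 2513.6 and 2070.4 in the wild-type arrays, with the 2 lowest values in 1 array of each genotype and a difference of -0.03 ± 0.12. A second Ndufs7 probe set was on the other side of 0, at 0.068. Ndufs8, a ferredoxin-like subunit with iron-sulfur clusters, read 4930.9, 5684.4 and 6079.1 in the knockout arrays and 4898.6, 5323.3 and 4652.9 in the wild-type arrays, with the highest value in knockout 66, the array that stood apart. Its difference was 0.16 ± 0.10 (interval from -0.068 to 0.39), but its 6 probe sets did not share a sign. The chosen one has the suffix _x_at, the mark of probes that can read related transcripts, and leaving such probe sets out gave -0.14. The other 5 ran from -0.14 to 0.23.

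Among the 9 measured accessory subunits of the matrix arm, 4 lay below 0 and 5 above, with a median of 0.015. Ndufs4, which holds the N module to the rest of the complex and whose loss causes a fatal encephalopathy in mice, read 2109.8, 2035.6 and 1984.9 in the knockout arrays and 2194.2, 2408.1 and 2183.5 in the wild-type arrays. It was the only 1 of 43 tested members whose arrays did not overlap between genotypes, all knockout arrays being lower, against 10.9% of all tested genes that did not overlap in either direction and 5.45% with knockout below. No member had all knockout arrays above all wild-type arrays, against 5.4% of all genes. The mean was 2043 ± 62.8 against 2262 ± 127 (SD, n = 3 each) and the difference -0.14 ± 0.10, with an interval from -0.36 to 0.075 (adjusted p = 0.974 in limma). Leaving out 1 array at a time moved it between -0.17 and -0.10. The 2 dimmer Ndufs4 probe sets that passed the filter gave -0.075 and 0.14, each with a larger standard error (0.17 and 0.26).

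Ndufab1, the mitochondrial acyl carrier protein, which is a subunit of complex I and also serves mitochondrial fatty acid synthesis, had the smallest p of all members. It read 6097.5, 6428.7 and 5615.1 in the knockout arrays and 5666.0, 5352.7 and 4941.7 in the wild-type arrays, and the genotypes overlapped only because wild-type 13 exceeded knockout 66. The mean was 6047 ± 409 against 5320 ± 363 and the difference 0.18 ± 0.10 (interval from -0.027 to 0.40, unadjusted p = 0.0806, adjusted p = 0.974 in limma), between 0.13 and 0.24 when arrays were left out in turn. A second bright Ndufab1 probe set, at 4183 against 4218, gave -0.022. Ndufa7 read 4340.0, 4164.6 and 4563.8 in the knockout arrays and 4342.0, 4421.3 and 3819.6 in the wild-type arrays, a difference of 0.056 ± 0.10. Its 5 probe sets ran from -0.14 to 0.13, and leaving out those with the suffix _x_at or _s_at gave -0.14.

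The remaining matrix arm genes differed by less than 0.03 in either direction. Ndufa9, a subunit near the ubiquinone site, read 4490.3, 3794.7 and 4998.4 in the knockout arrays and 4522.9, 4748.1 and 4181.1 in the wild-type arrays, with both the lowest and the highest value in the knockout. Its difference was -0.025 ± 0.11. Ndufa6, to which the acyl carrier protein binds, read 2711.9, 2294.3 and 2007.7 in the knockout arrays and 2215.1, 2620.8 and 2086.0 in the wild-type arrays (0.015 ± 0.13). Ndufv3, a small subunit of the flavoprotein fraction, read 5983.9, 5999.1 and 6266.3 in the knockout arrays and 7474.4, 6076.7 and 5188.5 in the wild-type arrays (-0.022 ± 0.12), with both the highest and the lowest value in the wild type. Ndufa2 (2657 ± 67.9 against 2634 ± 198), Ndufa5 (4621 ± 148 against 4560 ± 344) and Ndufa12 (3905 ± 389 against 3957 ± 392) gave 0.015, 0.021 and -0.019. A second Ndufa5 probe set gave -0.24 ± 0.15.

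**Figure D2:**
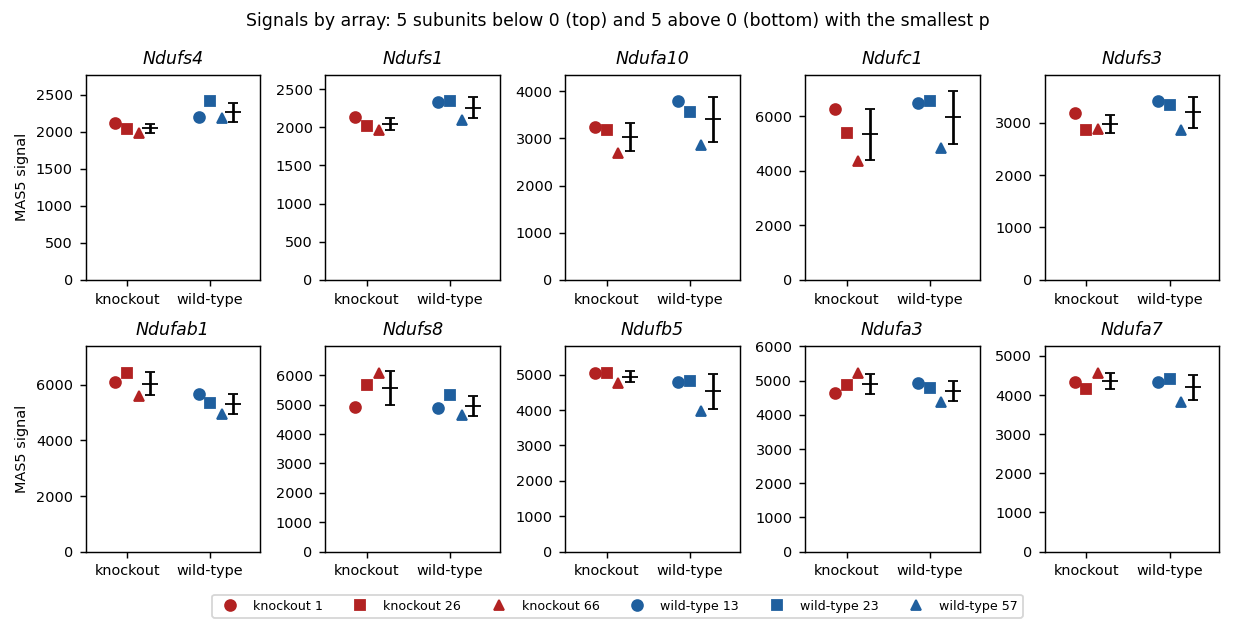
MAS5 signal by array for the 5 subunit genes below 0 (top row) and the 5 above 0 (bottom row) with the smallest p, in knockout (red) and wild-type (blue). Symbols name the arrays and pair nothing, and bars are the mean ± SD of 3 arrays. The genotypes overlap in every panel except Ndufs4, where the knockout arrays read 1984.9 to 2109.8 and the wild-type arrays 2183.5 to 2408.1.

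The membrane arm has a part next to the matrix arm and a distal part. Of the 8 measured accessory genes of the near part, 7 lay below 0 and 1 above, although Ndufc2, counted below, lay at -3.5e-05. The median was -0.082, the lowest of the structural groups with more than 3 members. The median remained below 0 under all 17 alternatives, between -0.18 without wild-type 57 and -0.027 without wild-type 13, with 5 to 7 members below 0, and none of the members passed the test. This was not particular to the near part. The N module, with 3 core genes, had a median of -0.084, which stayed between -0.12 and -0.045 under the same alternatives. Over all 6 core subunits the median stayed between -0.12 and -0.0059. Ndufa10, a subunit of the nucleoside kinase fold, read 3242.7, 3174.6 and 2699.7 in the knockout arrays and 3787.5, 3557.6 and 2866.7 in the wild-type arrays (-0.16 ± 0.13, interval from -0.43 to 0.12). Its lowest values were knockout 66 and wild-type 57, and a second, much dimmer probe set gave 0.20. Ndufc1 read 6252.8, 5385.6 and 4370.6 in the knockout arrays and 6494.9, 6548.0 and 4849.2 in the wild-type arrays (-0.16 ± 0.15), again lowest in knockout 66 and wild-type 57, and its second probe set gave 0.031.

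Ndufs5 and Ndufa8 are both proteins of the intermembrane space side. Ndufs5 read 765.8, 1005.0 and 706.1 in the knockout arrays and 978.1, 1011.3 and 734.9 in the wild-type arrays (-0.14 ± 0.17), with knockout 66 and wild-type 57 lowest. Ndufa8 read 3108.4, 3124.3 and 2977.1 in the knockout arrays and 3479.3, 3486.2 and 2789.3 in the wild-type arrays (-0.075 ± 0.11), where all knockout arrays lay between wild-type 57 and the other wild-type arrays. Ndufa13, also known as the cell death regulator GRIM-19, read 6440.5, 5847.5 and 5699.2 in the knockout arrays and 7068.4, 6584.4 and 5558.7 in the wild-type arrays, where wild-type 57 was the lowest array and the other wild-type arrays the highest (-0.09 ± 0.11). Ndufa1, an X-linked subunit needed for assembly, read 6449 ± 412 against 6622 ± 542 (-0.037 ± 0.10). Ndufc2 read 7483.8, 6544.6 and 5186.4 in the knockout arrays and 6553.9, 6660.7 and 5819.9 in the wild-type arrays, with knockout 1 highest and knockout 66 lowest of all arrays. Its difference was -3.5e-05, with an interval from -0.28 to 0.28. Ndufa3 was the 1 gene of this group above 0, at 4641.8, 4868.7 and 5224.1 in the knockout arrays and 4927.2, 4790.3 and 4370.8 in the wild-type arrays (0.065 ± 0.10), and its second kept probe set gave 0.017.

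In the distal part 6 of 11 genes lay below 0 and 5 above, with a median of -0.003. Ndufb5 read 5048.3, 5035.1 and 4759.4 in the knockout arrays and 4802.1, 4816.3 and 3961.1 in the wild-type arrays (0.13 ± 0.10, interval from -0.093 to 0.36), where 5 arrays lay between 4759.4 and 5048.3 and wild-type 57 was far lower. The difference was 0.04 without that array. Ndufb10, which has an intermembrane space fold held by disulfide bonds, read 1356.7, 1365.4 and 946.0 in the knockout arrays and 1457.0, 1501.9 and 1098.5 in the wild-type arrays (-0.15 ± 0.17), and knockout 66 was the lowest array. Without knockout 66 its difference turned to 0.022. Ndufb11, an X-linked subunit, read 6231 ± 649 against 6441 ± 771 (-0.046 ± 0.12), with the lowest values again in knockout 66 and wild-type 57.

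The other distal genes had differences between -0.028 and 0.042. Ndufb9, a binding partner of the acyl carrier protein, read 5916 ± 185 against 6044 ± 500 (-0.028 ± 0.093), and Ndufb8 read 4907 ± 306 against 4930 ± 523 (-0.003 ± 0.10). Ndufb7 (4801 ± 228 against 4846 ± 619) gave -0.0063 ± 0.11 and Ndufb2 (3406 ± 131 against 3415 ± 432) gave 0.0033 ± 0.11. A dim Ndufb2 probe set, at 86.3 against 148, gave -0.68 ± 0.32, the lowest value of the 78 member probe sets that passed the filter, while the remaining probe set gave 0.02. Ndufb6 read 3779.2, 3322.6 and 2616.1 in the knockout arrays and 3589.4, 3410.5 and 2709.2 in the wild-type arrays, with knockout 1 highest and knockout 66 lowest, at a difference of -0.0045 ± 0.15. Ndufb3 (2147 ± 121 against 2088 ± 181) gave 0.042 ± 0.11, Ndufb1 (387 ± 33.7 against 377 ± 22.8) gave 0.035 ± 0.15 and Ndufb4 (144 ± 2.46 against 141 ± 28.2) gave 0.037 ± 0.23. The Ndufb4 signals ran from 109.0 to 160.7, where the filter level is 95.2.

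Ndufaf genes, the assembly factors, had a median absolute difference of 0.15, against 0.13 over all tested genes and 0.039 in the subunits. Their median standard error was 0.16, against 0.19 and 0.11. Of the 8, 4 lay below 0 and 4 above. Ndufaf7, a methyltransferase that modifies a core subunit during assembly, read 287.5, 298.8 and 347.4 in the knockout arrays and 416.0, 358.8 and 339.8 in the wild-type arrays, a difference of -0.24 ± 0.16 with an interval from -0.60 to 0.11 (adjusted p = 0.974 in limma). Only knockout 66 exceeded the lowest wild-type array. Ndufaf5, which hydroxylates the core subunit Ndufs7, read 498.2, 491.5 and 438.7 in the knockout arrays and 430.5, 452.1 and 339.5 in the wild-type arrays (0.23 ± 0.16, interval from -0.12 to 0.57), with wild-type 57 lowest and only wild-type 23 above the lowest knockout array. Its partner Ndufaf8 pointed the other way, at 1585.6, 1046.9 and 1230.7 in the knockout arrays and 1552.8, 1359.1 and 1321.3 in the wild-type arrays (-0.15 ± 0.15). A second, dimmer Ndufaf8 probe set read 147 against 211, at -0.46 ± 0.23.

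Ndufaf3 and Ndufaf4 act together early, on the Q module. Ndufaf3 read 356.4, 330.1 and 277.8 in the knockout arrays and 358.1, 359.8 and 335.2 in the wild-type arrays (-0.13 ± 0.16), and knockout 66 was its lowest array. Ndufaf4 read 1902.6, 1731.3 and 1432.3 in the knockout arrays and 1622.5, 1725.9 and 1239.5 in the wild-type arrays (0.15 ± 0.15), with wild-type 57 lowest, and its second probe set had equal means of 439. Ndufaf1, a factor for the membrane arm, read 851.5, 856.3 and 630.3 in the knockout arrays and 875.5, 815.3 and 755.5 in the wild-type arrays (-0.075 ± 0.15), with 5 arrays between 755.5 and 875.5 and knockout 66 below them. Without knockout 66 the difference was 0.068. Ndufaf2, a paralog of the subunit Ndufa12, read 279.1, 338.2 and 215.8 in the knockout arrays and 268.0, 294.0 and 196.3 in the wild-type arrays (0.12 ± 0.22), and Ndufaf6 read 377.1, 320.8 and 361.6 in the knockout arrays and 383.3, 340.0 and 230.2 in the wild-type arrays (0.17 ± 0.20). Both were lowest in wild-type 57.

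Ndufa4, once assigned to complex I and now placed in cytochrome c oxidase, read 6483.4, 6115.6 and 5688.7 in the knockout arrays and 6130.9, 5965.7 and 5094.9 in the wild-type arrays (0.092 ± 0.10), with overlapping groups. Ndufa4l2, a paralog known as a hypoxia-inducible gene, did not pass the filter. It read 64, 29.7 and 116.1 in the knockout arrays and 59.1, 11.4 and 89.2 in the wild-type arrays, all low and without order by genotype, and was not tested.

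As deposited, the mean level of the subunits varied more between arrays of a genotype than between the genotypes. The mean deviation of the 34 subunits from each gene's average was 0.041, -0.00096 and -0.07 in the knockout arrays, in the order 1, 26 and 66. In the wild-type arrays, in the order 13, 23 and 57, it was 0.071, 0.10 and -0.14. The genotype means of these deviations were -0.0098 and 0.0098. Wild-type 57 was the lowest of the 6 arrays for 18 of 34 subunits and knockout 66 for 12, and wild-type 57 was the highest for 0. Within the wild type the median gap between the highest and lowest array was 0.28 for a subunit, and for 33 of 34 subunits this gap exceeded the genotype difference. The exception was Ndufs4. Over all tested genes the median gap was 0.31, and it exceeded the difference for 80.3%. Within the knockout the median gap was 0.18 for a subunit and 0.42 over all genes, and it exceeded the difference for 30 of 34 subunits (88.2%) and 87.6% of all genes.

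**Figure D3:**
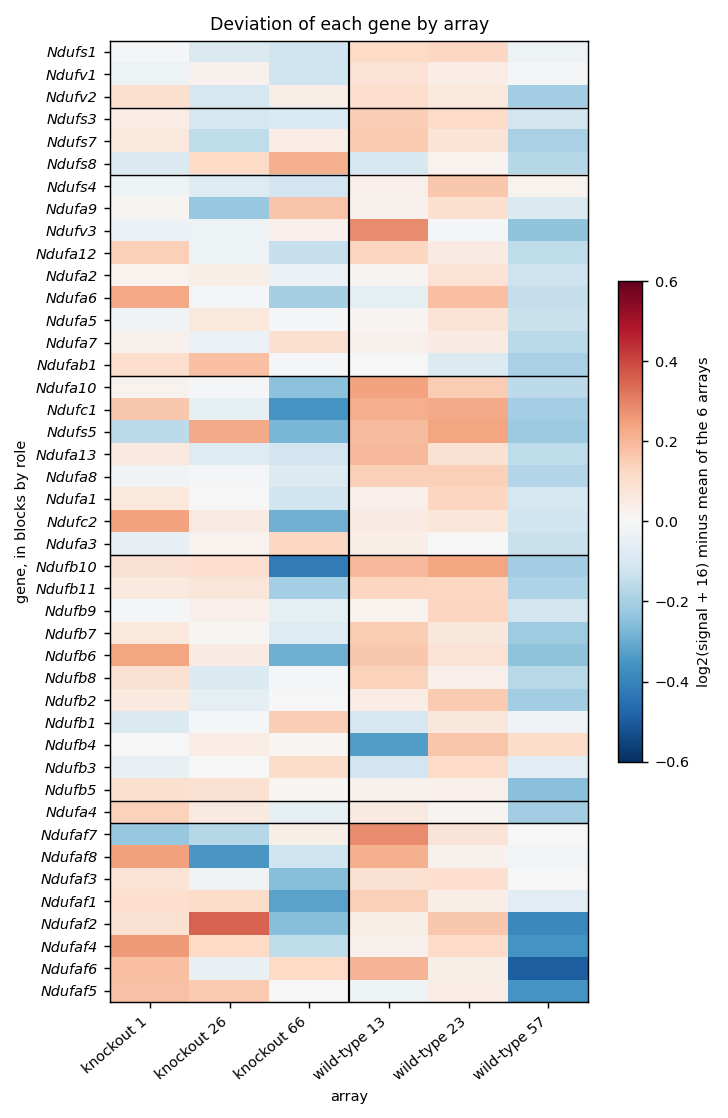
Deviation of log2(MAS5 signal + 16) from the mean of the 6 arrays for each of the 43 Nduf genes tested (rows, in blocks by role from core subunits at the top to assembly factors at the bottom) in each array (columns, knockout left and wild-type right of the line). Blue is below and red above the gene's average, and the wild-type 57 column holds the lowest value of 23 of the 43 genes, the knockout 66 column that of 14.

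The low values in wild-type 57 depended on the scaling. After quantile normalization the mean deviations of subunits were -0.048, -0.033 and -0.01 in the knockout arrays and 0.043, 0.091 and -0.042 in the wild-type arrays, and wild-type 57 was then lowest for 3 of 34 subunits. Knockout 1, 26 and 66 were then lowest for 10, 7 and 10, and the genotype means of the deviations were -0.03 in knockout and 0.03 in wild-type. Assembly factors kept the low values of that array, at -0.21 as deposited and -0.22 after quantile normalization. The genes of complexes II to V had deviations of 0.03, -0.052 and -0.014 in knockout and 0.077, 0.068 and -0.11 in wild-type arrays as deposited, also lowest in wild-type 57, and -0.0011 in that array after quantile normalization. The summed signal of cardiomyocyte markers was likewise lowest in wild-type 57, at 111233. Its part in these values was not tested.

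**Figure D4:**
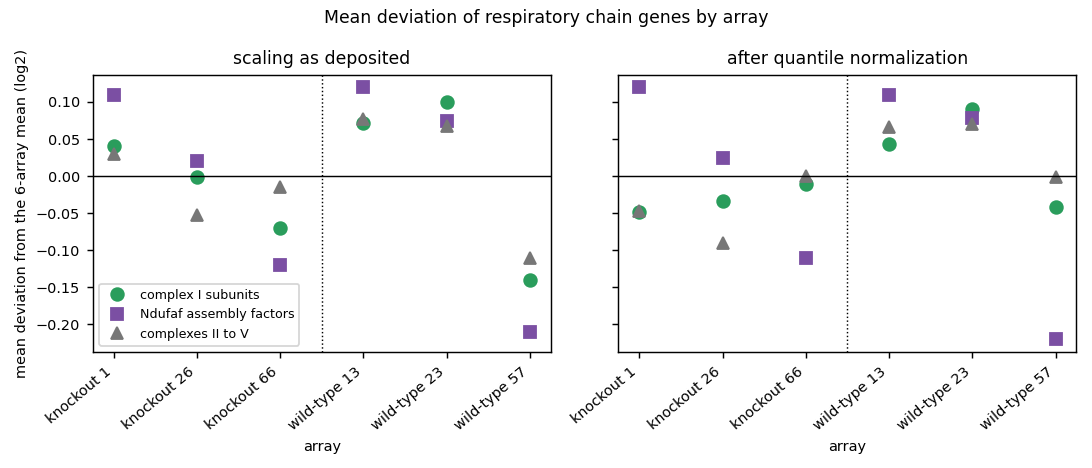
Mean deviation from the 6-array average (log2 scale) in each array for the 34 complex I subunits, the 8 Ndufaf assembly factors and 43 genes of complexes II to V, with the deposited scaling (left) and after quantile normalization (right). Wild-type 57 is lowest for all 3 sets on the left, at -0.14, -0.21 and -0.11, and on the right the subunits and the genes of complexes II to V lie at -0.042 and -0.0011 there.

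Probe sets of the same member often disagreed in sign at these small sizes. Of 21 members with more than 1 kept probe set, 8 had all on the same side of 0 and 13 had them on both. Of the 78 kept probe sets 40 lay below 0 and 38 above, and 0 had an unadjusted p under 0.05 in limma, the smallest being 0.0598. The direction of 26 of the 43 tested members turned under at least 1 of 17 alternatives.

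The other respiratory chain genes gave 0 that rose and 0 that fell after adjustment over all genes in limma, with 2 above and 4 below 0 at an unadjusted p under 0.05 among 43 tested genes of complexes II to V, a list that includes Ndufa4. These 6 genes are 14% of the list, against 4.69% of all genes. Their median was -0.0054, with 22 below 0. Complex II had the lowest median of the 4, at -0.14 over 4 genes, 3 of them below 0, but 0.011 with 2 of 4 below 0 when probe sets with the suffix _x_at or _s_at were left out. Its membrane anchor gene Sdhc read 1082.6, 974.9 and 777.7 in the knockout arrays and 1416.0, 1378.8 and 1154.7 in the wild-type arrays, groups that did not overlap, with a difference of -0.48 ± 0.15 (unadjusted p = 0.00749, adjusted p = 0.974 in limma). Complex III had a median of -0.031 over 9 genes, and Uqcrb, a ubiquinone-binding subunit, was higher in all knockout arrays, at 21910.3, 21566.6 and 24932.6 in the knockout arrays and 18474.8, 18984.8 and 18345.4 in the wild-type arrays (0.29 ± 0.083). Complex IV had a median of 0.084 over 15 genes, with the muscle isoform Cox8b at -0.78 ± 0.25. Cox8b was dim, near the filter level of 95.2. It read 110.7, 79.4 and 146.4 in the knockout arrays and 191.0, 202.3 and 205.9 in the wild-type arrays. Complex V had a median of 0.023 over 15 genes, with Atp5k, a small membrane subunit of ATP synthase, at 0.31 ± 0.11. None of Sdhc, Uqcrb, Cox8b and Atp5k passed the adjustment. Of the 43 genes of complexes II to V, 4 had all knockout arrays above all wild-type arrays and 3 had all below (16.3%). Over all genes 10.9% did not overlap in either direction. The medians of complexes IV and V turned to -0.015 and -0.062 after quantile normalization, and that of complex III turned to 0.029 without knockout 26 and 0.014 without wild-type 13. For complex V the median also turned to -0.017 with array quality weights and -0.0064 without _x_at and _s_at probe sets. It was -0.046 with probe sets averaged per gene, -0.04 without knockout 1 and -0.046 without wild-type 57.

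Assembly factors of complex I without an Ndufaf name gave 4 genes below 0 and 5 above among 9 tested, with a median of 0.052 and 0 called. Timmdc1, an assembly factor for the membrane arm, read 701.1, 671.1 and 648.4 in the knockout arrays and 472.7, 576.7 and 508.2 in the wild-type arrays. Its groups did not overlap, at 0.37 ± 0.13 (interval from 0.072 to 0.67, unadjusted p = 0.0193, adjusted p = 0.974 in limma). Groups without overlap made up 11.1% of this list, against 10.9% of all genes. Among 14 tested regulators of respiratory chain genes 7 lay below 0 and 7 above, with a median of 0.013 and 0 called. The smallest p in that list belonged to Ppargc1a, the coactivator of mitochondrial biogenesis, at -0.21 ± 0.14 (unadjusted p = 0.151 in limma). It read 459.0, 451.9 and 424.0 in the knockout arrays and 482.9, 547.4 and 523.4 in the wild-type arrays, all knockout arrays being lower. The list had 1 gene with all knockout arrays below all wild-type arrays and 1 with all above (14.3%), against 10.9% of all genes.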

How the data were processed

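The data were probe set intensities of 6 Affymetrix Mouse Genome 430 2.0 arrays, a 1-colour design, made by the authors with the GCOS software and its MAS5 algorithm (tool names from the submitters' processing notes). Their versions and the scaling target were not stated in the labels. All 6 deposited intensity columns had a 2% trimmed mean of 250, so a value shows a transcript's share of its own array's signal, not an absolute amount, and precision is limited by having 3 arrays per genotype.

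Of 45101 probe sets 64 were controls. The platform annotation gave 1 symbol for 34958 and several for 932, and the latter were left out. They include 10 that name an Nduf gene, so Nduf genes read only by these were not analysed here. All 44 members matched RefSeq by Entrez identifier.

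Intensities were transformed as log2(intensity + 16), which understates changes of dim genes. Probe sets with a mean over 6 arrays above the median of non-control probe sets (a signal of 95.2) were kept, 22518 in all. They were fitted with limma 3.58.1 (R 4.3.3) by lmFit, then eBayes with trended variance, as a two-sided test with no covariates. The brightest kept probe set represented each of 11661 genes, adjusted among themselves by Benjamini-Hochberg. Intervals are 95% intervals of limma. The fit was tested on simulated data. Lists were described by counts and medians, without a test.

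Members and lists were chosen with earlier results of these data known. Values in every array were given for the 5 subunits of smallest p on each side of 0, the core subunits, the Ndufaf genes, Ndufa4 and Ndufa4l2, and for others where arrays stood apart. In the other lists the gene of smallest p was named. Alternatives were pseudocounts of 1 and 64, no filter, a filter at the 70th percentile, quantile normalization and median centring. Others were array quality weights, eBayes robust or without a trend, leaving out each array, and exclusion of probe sets with suffix _x_at or _s_at. The last averaged those probe sets of a gene that passed the filter. Matplotlib 3.10.9 (Python 3.11.15) drew the figures.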

Additional observations from a re-analysis of the deposited data

How the results depend on the processing

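No member passed an adjusted p of 0.05 under any of the 17 alternatives, where the lowest adjusted p of a member was 0.293. At an unadjusted p under 0.05 stood Ndufab1 with array quality weights and without knockout 66, Ndufs8 and Ndufaf8 without knockout 1, and Ndufa10 without wild-type 57, where 12.1%, 7.48%, 7.16% and 3.53% of all genes did. Over all genes 8 passed with array quality weights, 2 without knockout 1 and 1 without knockout 66, a range of 0 to 2 when arrays were left out. The number of subunits below 0 ranged from 11 without wild-type 23 to 27 without wild-type 57, and the subunit median from -0.10 to 0.023. The median of the assembly factors ranged from -0.082 to 0.11 with arrays left out and was 0.12 with _x_at and _s_at probe sets excluded. Of 43 tested members 17 kept their direction throughout. For the others the cause of a changed sign was not tested. With centring on array medians the difference turned to Ndufb6 0.0081, Ndufb7 0.0064, Ndufb8 0.0096 and Ndufc2 0.013. With quantile normalization the difference turned to Ndufa2 -0.00086, Ndufa5 -0.026, Ndufa6 -0.012, Ndufb2 -0.043 and Ndufv2 -0.045. With array quality weights the difference turned to Ndufa6 -0.016, Ndufa7 -0.0068, Ndufaf1 0.021, Ndufb1 -0.0049, Ndufb2 -0.068, Ndufb3 -0.0064, Ndufb6 0.018, Ndufc2 0.031 and Ndufv2 -0.062. With probe sets averaged per gene the difference turned to Ndufa10 0.023, Ndufa12 0.019, Ndufa5 -0.11, Ndufb11 0.03, Ndufb2 -0.22, Ndufb7 0.015 and Ndufs7 0.019. With exclusion of _x_at and _s_at probe sets the difference turned to Ndufa7 -0.14 and Ndufs8 -0.14. With a pseudocount of 64 the difference turned to Ndufc2 7.1e-05. With each array left out in turn, differences that changed sign ranged as follows: Ndufa12 from -0.10 to 0.047, Ndufa1 from -0.10 to 0.019, Ndufa2 from -0.044 to 0.063, Ndufa5 from -0.039 to 0.068, Ndufa6 from -0.10 to 0.12, Ndufa7 from -0.0093 to 0.10, Ndufa9 from -0.12 to 0.081, Ndufaf1 from -0.15 to 0.068, Ndufaf2 from -0.036 to 0.28, Ndufaf6 from -0.033 to 0.32, Ndufb10 from -0.29 to 0.022, Ndufb11 from -0.15 to 0.043, Ndufb1 from -0.03 to 0.088, Ndufb2 from -0.10 to 0.082, Ndufb3 from -0.0062 to 0.11, Ndufb4 from -0.12 to 0.13, Ndufb6 from -0.13 to 0.14, Ndufb7 from -0.11 to 0.068, Ndufb8 from -0.087 to 0.066, Ndufb9 from -0.09 to 0.03, Ndufc2 from -0.12 to 0.14, Ndufs7 from -0.13 to 0.04, Ndufv2 from -0.07 to 0.086 and Ndufv3 from -0.15 to 0.11. No paired analysis was possible because the genotypes share no replicate number. The 3 arrays per genotype and signals near the filter (Ndufb4) limit the precision.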
